A study of Mus musculus with 12 samples.

Results

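The receptors for M-CSF and RANKL, with the adaptors, kinase, transcription factors and effector genes that act behind them, were read as 10 genes taken by name: Csf1r, Tnfrsf11a, Oscar, Tyrobp, Traf6, Src, Nfatc1, Mitf, Acp5 and Dcstamp. All 10 were among the 23420 genes of the count table, and the rule that took them used their names alone. Monocytic myeloid-derived suppressor cells (M-MDSCs), a population of immature monocyte-like cells that restrains T cells and can give rise to osteoclasts, were sorted as CD11b+Ly6G-Ly6Chi cells from the bone marrow (BM) of male C57BL/6JNIA mice. The aged mice were 24 months old (n = 6) and the young mice were 6 months old (n = 6), each library came from a mouse of its own, and all mice came from the NIA aging colony. The labels name no transgene and no treatment of the mice, and the RNA was taken from sorted cells, without the culture with M-CSF and RANKL that the study used to grow osteoclasts. The comparison therefore addressed whether the parts of this pathway were already present at different RNA levels in these sorted cells of aged mice.

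Osteoclasts, the cells that resorb bone, form when myeloid precursors receive both M-CSF, which signals through the tyrosine kinase receptor encoded by Csf1r, and RANKL, which signals through RANK, encoded by Tnfrsf11a. RANK recruits TRAF6 and activates NF-kB and AP-1, while receptors that carry ITAM adaptors such as DAP12, encoded by Tyrobp, raise calcium, and these arms meet at NFATc1, the main transcription factor of the programme. NFATc1 works with MITF and PU.1 on genes of the mature osteoclast, among them Acp5, which encodes the tartrate-resistant acid phosphatase (TRAP) that is stained to count osteoclasts, and Dcstamp, which is needed for cell fusion.

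Each aged library held 8737941 to 16300374 counted fragments and each young library 4613239 to 9079237, so that 3 counts stood for 0.188 to 0.350 CPM (counts per 1000000 counted fragments) in the aged group and 0.306 to 0.643 CPM in the young group. CPM values are scaled to library totals multiplied by TMM factors of 0.919 to 1.10. The sorted phenotype was checked against marker genes. Itgam, which encodes CD11b, was at 2895 CPM in aged mice and 3376 CPM in young mice on average, and the monocyte gene Ly6c2 was at 727 and 500.3 CPM. Granule genes of the neutrophil lineage, whose Ly6G-bearing cells the Ly6G- gate is meant to leave out, were far more abundant, with Ngp at 39630 and 30944 CPM, and the 6 neutrophil markers summed to between 66685 and 84053 CPM in aged mice and between 54184 and 73861 CPM in young mice, against 4176 to 5108 and 4543 to 4971 CPM for the 5 classical monocyte markers. Several of these markers differed with age by edgeR: of the 6 neutrophil markers, Ngp (log2 fold change 0.36), Camp (0.47) and Retnlg (0.55) were called higher in aged mice and 0 lower, and of the monocyte markers, Ly6c2 (0.54) and Cd14 (1.11) were called higher and Itgam (-0.22) lower. With each library's trend with exon length removed, only the Cd14 call was left among these 6 (0.90, adjusted p = 0.00128), and the other 5 lay between -0.056 and 0.12. The values below are those of all cells in the sorted libraries, which the study calls M-MDSCs. The part of these markers in them was not tested. In bulk RNA, fewer cells of a type and less RNA per cell cannot be told apart. The sample numbers in the deposited column names were lower for every young than for every aged library, so age and that order cannot be told apart.

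Of the 10 genes, 6 had enough counts for the test over all genes, and 2 of these were higher in aged mice (Tyrobp and Acp5), 0 were lower and 4 were not called by edgeR's quasi-likelihood test at a Benjamini-Hochberg adjusted p below 0.05. Among all 9742 genes tested, 22.4% were called higher and 23.0% lower (45.4% in either direction), so the 2 called genes of 6 were not many beside the background. The median log2 fold change was 0.12 over the 6 genes and 0.01 over all genes tested. At the unadjusted p of 0.05 the count of lower genes was also 0, DESeq2 gave 0, and the scaling to library totals alone gave 1. In none of the 6 genes were the ages free of overlap, whereas 21.8% of all genes tested showed no overlap in either direction and 9.68% lay higher in aged mice without overlap.

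**Figure D1:**
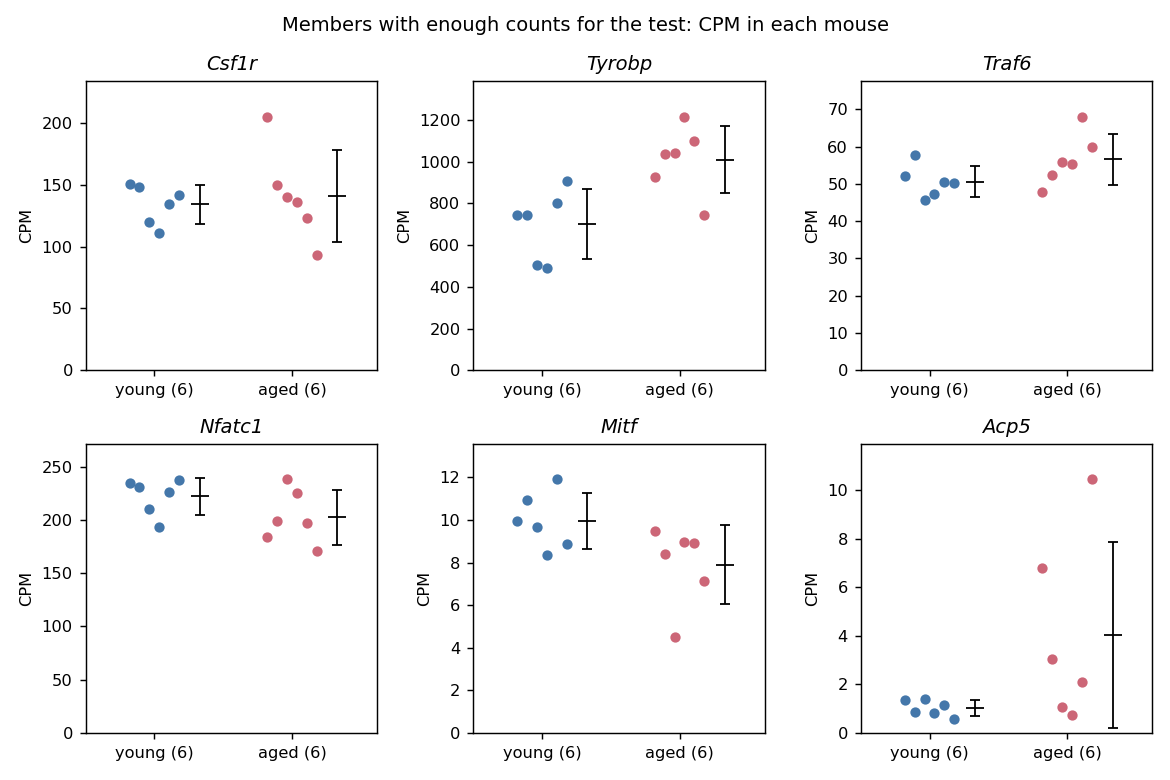
CPM on a linear axis from 0 in each mouse for the 6 genes with enough counts for the test, young mice (6) in blue and aged mice (6) in red, with the mean and SD beside the points. Tyrobp was higher in aged mice with 5 of 6 aged mice above the highest young mouse, while Acp5 ranged from 0.739 to 10.5 CPM among aged mice.

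Among the receptors, Csf1r was well expressed and did not differ detectably with age. Csf1r (chromosome 18, 61105572 to 61131139, mm10) ranged from 93.1 CPM over a median of 138 to 205 CPM in aged mice, and from 111 over 138 to 150.4 CPM in young mice. The medians nearly coincided, and the aged mice held both the highest and the lowest value. The means were 141 ± 37.0 CPM in aged mice and 134 ± 15.9 CPM in young mice (SD, n = 6 each), with a log2 fold change of 0.07 (SE 0.145, edgeR adjusted p = 0.704). The sign of this difference was not stable, since without aged mouse 1, the highest, it was -0.064 (adjusted p = 0.681).

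Tnfrsf11a, which encodes RANK itself, had low counts in both ages. Tnfrsf11a (chromosome 1, 105780723 to 105847981) had 34, 16, 5, 7, 7 and 24 counts in aged mice 1, 2, 4, 5, 6 and 7, and 3, 0, 13, 4, 2 and 4 counts in young mice 1, 2, 5, 6, 9 and 10. The 3 highest aged mice (1, 7 and 2) were above every young mouse in both counts and CPM, and the other aged mice lay within the young range. The totals were 93 and 26 counts, and the mean levels 1.50 ± 1.24 and 0.518 ± 0.483 CPM (SD, n = 6 each). The gene did not pass the filter on low counts. Fitted without the filter, its log2 fold change was 1.39 (SE 0.574, edgeR adjusted p = 0.0778), and DESeq2 gave 1.46 (adjusted p = 0.0528), so the difference missed the threshold with both tools. Without a filter, 14.6% of 15827 genes were called higher by edgeR, and DESeq2 called 19.3% higher of the 12754 genes to which it gave an adjusted p. The call depended on single libraries: edgeR gave an adjusted p of 0.0493 without aged mouse 4 and a log2 fold change of 2.03 (adjusted p = 0.0206) without young mouse 5, and 0.70 (adjusted p = 0.393) without aged mice 1 and 7.

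Oscar, the ITAM-linked receptor that costimulates osteoclast precursors, was practically not detected. Oscar (chromosome 7, 3609815 to 3616133) had 1 count in aged mouse 6 and 2 counts in young mouse 5, and 0 in the other mice of both ages. These values were under the floor of 3 counts per library, and no fold change is given.

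**Figure D2:**
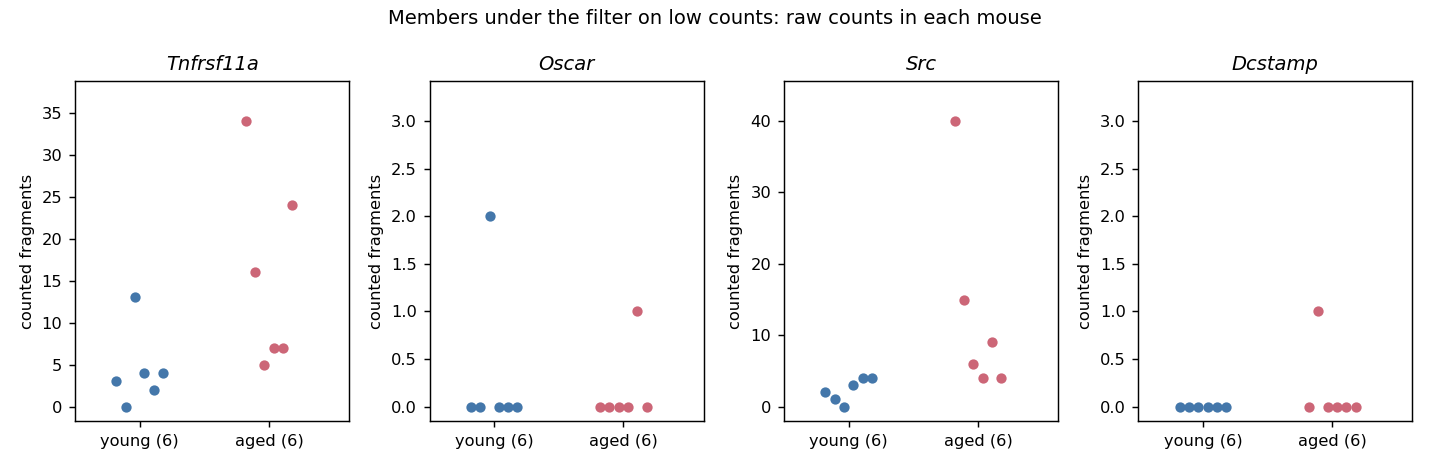
Raw counts of fragments in each mouse for the 4 genes that did not pass the filter on low counts, young mice (6) in blue and aged mice (6) in red. Tnfrsf11a reached 34 counts and Src 40 counts in aged mouse 1, while Oscar and Dcstamp had at most 2 counts in any mouse.

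Among the adaptors, Tyrobp was the most abundant of the 10 genes and was higher in aged mice. Tyrobp (chromosome 7, 30413788 to 30417579) ranged from 742 over a median of 1039.8 to 1216 CPM in aged mice and from 489 over 746 to 909 CPM in young mice. Aged mouse 7 lay within the young range and the other 5 aged mice were above every young mouse. The means were 1010.3 ± 162 and 699.5 ± 168 CPM (SD, n = 6 each), a log2 fold change of 0.53 (SE 0.152) or 1.44-fold, with an edgeR adjusted p of 0.0109. The call held in each of the 12 fits that left out a mouse, with log2 fold changes of 0.45 to 0.62. It did not hold with the same removal of the exon length trend, which gave -0.026 (adjusted p = 0.839). The exons of Tyrobp span 566 bases, the shortest of the 10 genes, and 18.3% of all genes tested were called higher in that fit.

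Traf6, the ubiquitin ligase that binds RANK, was at a similar level in both ages. Traf6 (chromosome 2, 101678440 to 101700974) ranged from 47.8 over 55.7 to 68.1 CPM in aged mice and from 45.8 over 50.4 to 57.7 CPM in young mice, and 2 aged mice were above the highest young mouse. The log2 fold change was 0.17 (SE 0.0867, edgeR adjusted p = 0.126). With the exon length trend removed it was 0.40 (adjusted p = 0.00366), which passed the threshold. For Tyrobp and Traf6, whose exons span 566 and 5474 bases, the length correction moved the call in opposite directions.

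Src, the tyrosine kinase that osteoclasts need for their ruffled border, had few counts, and a large share of them came from aged mouse 1. Src (chromosome 2, 157424293 to 157471838) had 40, 15, 6, 4, 9 and 4 counts in aged mice 1, 2, 4, 5, 6 and 7, and 2, 1, 0, 3, 4 and 4 counts in young mice 1, 2, 5, 6, 9 and 10. Aged mouse 1 held 40 of the 78 aged counts, and in CPM 4 aged mice were above the highest young mouse. The mean levels were 1.39 ± 1.60 and 0.308 ± 0.180 CPM (SD, n = 6 each). Fitted without the filter, the log2 fold change was 2.07 (SE 0.704, edgeR adjusted p = 0.0338), and DESeq2 gave 2.15 (adjusted p = 0.0162). The call was lost without aged mouse 1 (1.23, adjusted p = 0.147), without aged mouse 2 (1.99, adjusted p = 0.0599), and without young mouse 2, 5 or 6 (2.01, 1.77 and 2.07, adjusted p = 0.0557, 0.0706 and 0.0568), so 7 of 12 fits kept it. Among these 5 fits the log2 fold change was lowest without aged mouse 1.

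The transcription factor genes Nfatc1 and Mitf were not called by edgeR with TMM factors. Nfatc1 (chromosome 18, 80606205 to 80713071) ranged from 170.5 over 198 to 238 CPM in aged mice and from 193 over 229 to 238 CPM in young mice. The ranges overlapped and the highest values were nearly the same. The means were 202 ± 25.4 and 222 ± 17.2 CPM (SD, n = 6 each), with a log2 fold change of -0.14 (SE 0.0844, edgeR adjusted p = 0.203). This small difference changed with the scaling: with library totals in place of TMM it was -0.22 (adjusted p = 0.0186) and was called lower, and with the exon length trend removed it was 0.24 (adjusted p = 0.0819).

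Mitf (chromosome 6, 97807058 to 98021358) ranged from 4.49 over 8.65 to 9.48 CPM in aged mice and from 8.35 over 9.81 to 11.9 CPM in young mice. No aged mouse was above the highest young mouse, and aged mouse 4 was the lowest of all. The means were 7.89 ± 1.85 and 9.95 ± 1.31 CPM (SD, n = 6 each), with a log2 fold change of -0.33 (SE 0.162, edgeR adjusted p = 0.110), which was not called in any of the settings that were run.

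Among the effector genes, Acp5 had the largest fold change of the 6 tested genes, and it was uneven among aged mice. Acp5 (chromosome 9, 22126727 to 22135746) had 61, 26, 10, 8, 22 and 167 counts in aged mice 1, 2, 4, 5, 6 and 7, and 7, 4, 13, 8, 10 and 5 counts in young mice 1, 2, 5, 6, 9 and 10. In CPM the aged mice were at 6.80, 3.03, 1.07, 0.739, 2.08 and 10.5 in the same order, while the young mice lay between 0.592 and 1.41. Aged mice 7 and 1 stood highest, mice 2 and 6 were also above every young mouse, and mice 4 and 5 were within the young range. The means were 4.03 ± 3.83 and 1.03 ± 0.329 CPM (SD, n = 6 each), a log2 fold change of 1.995 (SE 0.589) or 3.99-fold, with an edgeR adjusted p of 0.0126. The call held in each fit that left out 1 mouse (1.39 to 2.21), but the size rested on aged mice 1 and 7: without both, chosen after their values were seen, the log2 fold change was 0.73 (adjusted p = 0.149). Limma-voom gave 1.49 (adjusted p = 0.0937).

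Dcstamp (chromosome 15, 39745932 to 39760934) had 1 count in aged mouse 2 and 0 counts in the other 11 mice. It was not detectable at this depth, and no fold change is given.

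**Figure D3:**
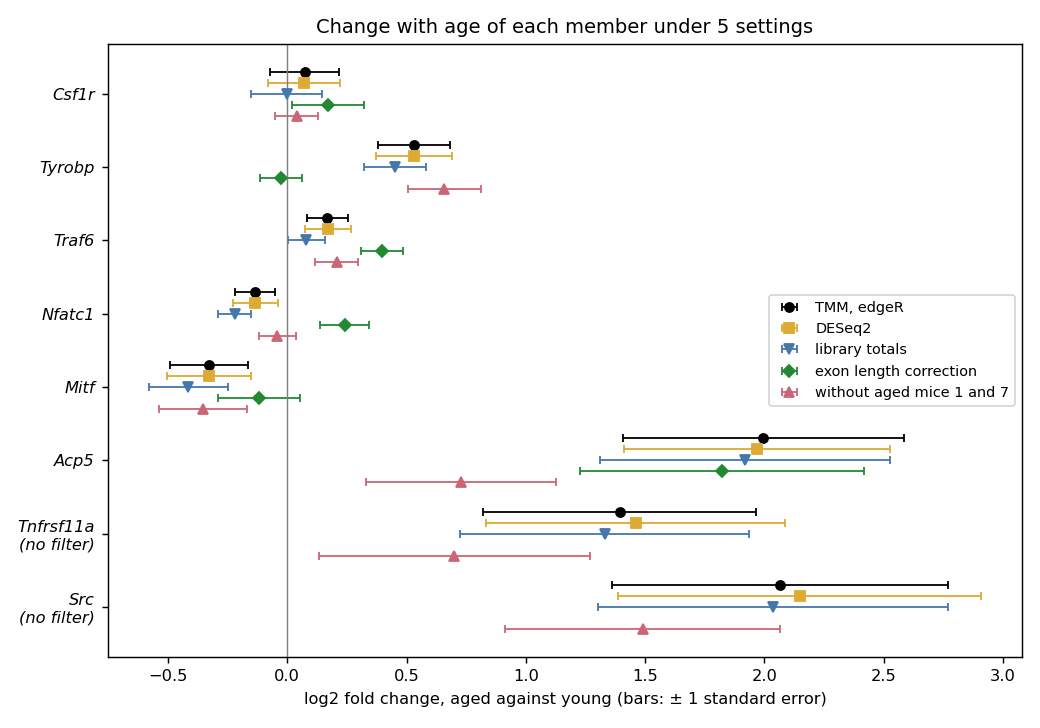
log2 fold change of aged against young mice with ± 1 standard error for 8 genes under up to 5 settings. Tnfrsf11a and Src were fitted without a filter on low counts, and the exon length correction was not run for them. The exon length correction moved Tyrobp from 0.53 to -0.026 and Nfatc1 from -0.14 to 0.24, and leaving out aged mice 1 and 7 moved Acp5 from 1.995 to 0.73.

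Since Acp5 passed the test and Tnfrsf11a and Src had low counts, the promoter windows at the annotated start sites of these 3 genes are shown. RefSeq (GRCm38.p6) gave windows of 300 bases, from 250 bases before to 50 bases after a start, for 6 of the 10 genes, 10 windows in all. Both strands were searched for TCATGTG (the M-box bound by MITF and its relatives), TGANTCA (AP-1) and GAGGAA (PU.1), and capitals mark the matches. Acp5 has 3 starts on the minus strand, at chr9:22135697-22135996, chr9:22131816-22132115 and chr9:22130549-22130848 in the order shown, Tnfrsf11a lies at chr1:105780473-105780772 and Src at chr2:157424043-157424342, both on the plus strand.
Acp5, upstream start: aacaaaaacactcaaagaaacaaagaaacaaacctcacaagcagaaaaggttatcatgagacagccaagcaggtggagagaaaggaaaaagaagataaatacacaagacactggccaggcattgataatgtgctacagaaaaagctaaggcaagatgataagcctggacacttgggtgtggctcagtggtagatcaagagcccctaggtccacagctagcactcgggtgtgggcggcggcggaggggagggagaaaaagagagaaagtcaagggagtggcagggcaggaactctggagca
Acp5, middle start: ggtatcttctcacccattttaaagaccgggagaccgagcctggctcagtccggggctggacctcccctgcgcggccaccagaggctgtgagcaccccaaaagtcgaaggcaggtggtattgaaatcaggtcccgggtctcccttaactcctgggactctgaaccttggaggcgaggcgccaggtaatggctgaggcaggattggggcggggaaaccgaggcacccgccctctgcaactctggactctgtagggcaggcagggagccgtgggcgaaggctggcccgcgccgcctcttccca
Acp5, downstream start: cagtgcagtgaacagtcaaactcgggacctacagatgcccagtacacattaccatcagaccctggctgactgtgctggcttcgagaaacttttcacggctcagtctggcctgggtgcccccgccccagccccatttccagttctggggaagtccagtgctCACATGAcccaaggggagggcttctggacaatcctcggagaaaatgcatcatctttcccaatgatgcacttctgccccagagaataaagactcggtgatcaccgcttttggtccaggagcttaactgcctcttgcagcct
Tnfrsf11a: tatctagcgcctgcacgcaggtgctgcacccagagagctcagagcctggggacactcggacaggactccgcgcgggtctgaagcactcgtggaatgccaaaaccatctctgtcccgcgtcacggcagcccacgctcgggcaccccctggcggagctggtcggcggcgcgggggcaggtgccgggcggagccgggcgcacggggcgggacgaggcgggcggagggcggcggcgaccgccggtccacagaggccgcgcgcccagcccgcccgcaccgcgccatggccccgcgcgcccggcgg
Src: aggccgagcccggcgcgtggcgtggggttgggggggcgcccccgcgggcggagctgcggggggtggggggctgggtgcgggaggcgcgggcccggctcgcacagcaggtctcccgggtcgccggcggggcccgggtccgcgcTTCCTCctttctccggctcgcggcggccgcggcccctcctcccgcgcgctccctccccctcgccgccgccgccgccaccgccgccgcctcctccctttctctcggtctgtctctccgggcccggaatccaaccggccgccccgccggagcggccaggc
The downstream Acp5 window held an M-box, read as CACATGA on the gene's strand, at position -90 from the start, and the other Acp5 windows held none of the 3 motifs. M-boxes stood in 3.77% of 32851 mouse promoter windows, AP-1 motifs in 7.81% and PU.1 motifs in 28.3%. The Src window held a PU.1 motif (TTCCTC, at position -108 from the start), and the Tnfrsf11a window held no match. Of the windows not shown, Traf6 held 2 PU.1 motifs, Oscar held 2, and the 3 windows of Mitf held none. The Tnfrsf11a and Src windows were 76.7% and 82.3% G and C, against a median of 52.7% over all windows and 48.7%, 64.0% and 54.7% for Acp5. The counts were summed per gene, so they do not tell which Acp5 start was used.

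Levels of the 10 genes were compared with each other per length, as CPM per kilobase of exon, while marker levels and sums are given in plain CPM. In young mice the order ran from Tyrobp (1236 ± 296 CPM per kilobase) over Csf1r (34.7 ± 4.10), Nfatc1 (29.9 ± 2.31) and Traf6 (9.24 ± 0.764) to Mitf (1.92 ± 0.253), Acp5 (0.639 ± 0.204), Tnfrsf11a (0.103 ± 0.0962) and Src (0.0792 ± 0.0463), with n = 6 for each SD. Csf1r was above Nfatc1 in each of the 6 young and 6 aged mice, although their ranges over mice overlapped. Tnfrsf11a was above Src in 3 of 6 young and 2 of 6 aged mice, so these neighbours had no fixed order. In aged mice the order was the same at its top, with Tyrobp at 1785 ± 285 and Csf1r at 36.5 ± 9.56 CPM per kilobase. Acp5 (2.49 ± 2.37) and Mitf (1.52 ± 0.357) changed places, and Mitf was above Acp5 in 3 of 6 aged mice and in 6 of 6 young mice. RANK transcripts were thus far rarer than transcripts of the M-CSF receptor in both ages on the scale per length.

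Resident macrophages of the BM also transcribe several of these genes, and their markers moved with age, although the Ly6Chi gate selects cells with more Ly6C than these macrophages usually carry. All 10 macrophage markers had counts, 9 passed the filter on low counts, and the 9 tested were each called higher with age. The list summed to 603 to 1662 CPM in the aged and 395 to 552 CPM in the young, of which the iron exporter gene Slc40a1 alone made up 443 to 609 and 343 to 505 CPM. Without Slc40a1 the other 9 markers summed to 1053, 323, 114, 58.1, 175 and 191 CPM in aged mice 1, 2, 4, 5, 6 and 7, and to 47.3 to 66.0 CPM in young mice. The complement gene C1qa alone was at 84.7 CPM in aged mouse 1 and 5.18 CPM in aged mouse 5, against 1.76 to 3.86 CPM in young mice. Vcam1, an adhesion molecule of these macrophages, reached 301 CPM and Mrc1, a mannose receptor, 134 CPM in aged mouse 1, with at most 27.2 and 7.69 CPM in young mice. The mouse with the highest marker sum, aged mouse 1, also had the highest Csf1r, Tnfrsf11a and Src, and aged mouse 5, the lowest of the aged mice, lay within the young range for Acp5, Tnfrsf11a and Src in CPM. Aged mouse 7, with the third highest marker sum (191 CPM), departed from this order in 3 genes, since it had the highest Acp5 (10.5 CPM), the lowest Src of the aged mice (0.251 CPM, within the young range) and the lowest Csf1r of all 12 mice (93.1 CPM). The part of these markers in the 4 genes was not tested.

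**Figure D4:**
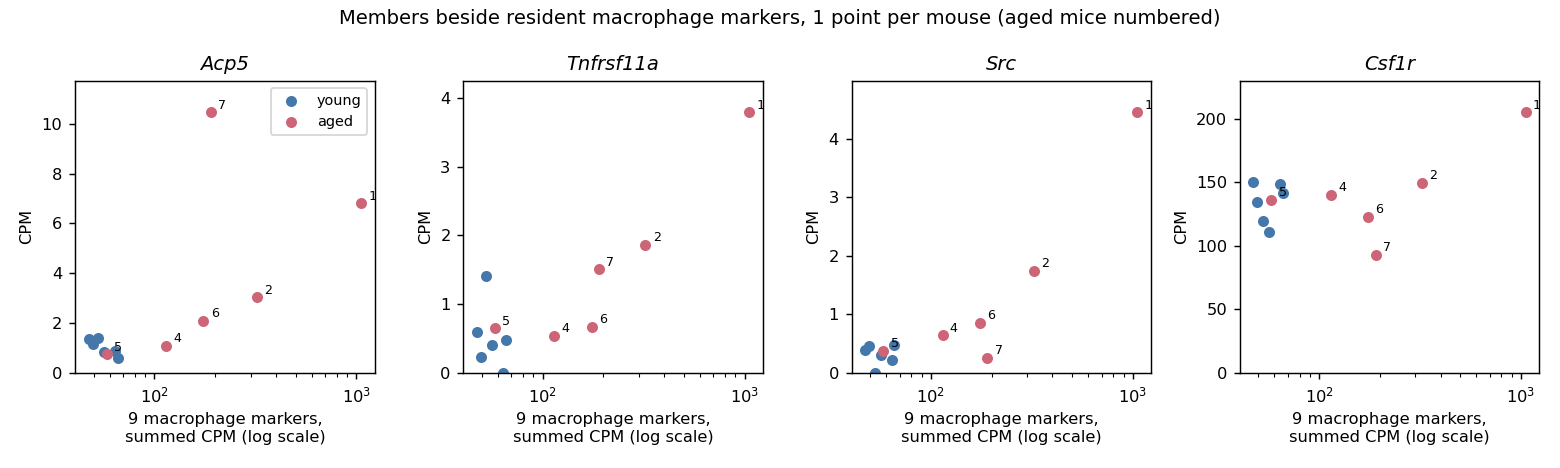
CPM of Acp5, Tnfrsf11a, Src and Csf1r (linear axis) against the summed CPM of 9 resident macrophage markers without Slc40a1 (log axis), 1 point per mouse with aged mice numbered. Aged mouse 1 stands alone at 1053 CPM of marker sum, and aged mouse 7 has the highest Acp5 at 191 CPM.

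Markers of mature osteoclasts were low apart from those that other myeloid cells share. Calcr had 0 counts in every mouse, Ocstamp had at most 2 counts, and Ctsk, the main collagen-degrading protease of osteoclasts, was at 1.19 CPM in aged mice and 0.743 CPM in young mice on average, with 39 counts at most, in aged mouse 1. Mmp9, a gelatinase also stored in neutrophil granules, was at 9681 and 8117 CPM, and Itgb3, an integrin chain, at 175 and 170.4 CPM, and neither was called. Cxcl12, the most abundant of 6 stromal markers in CPM, was called higher in aged mice (29.6 against 6.23 CPM on average), with the aged mice between 5.45 and 73.8 CPM. Only 2 of these 6 markers were tested, and the other, Col1a1, was not called (log2 fold change -0.26, edgeR adjusted p = 0.481). Of the remaining marker lists, dendritic cell markers summed to at most 2.10 CPM in aged mice and 7.74 CPM in young mice, with Clec9a called lower. B cell markers summed to at most 11.9 and 3.20 CPM, T and NK cell markers to 3.79 and 2.37 CPM, plasma cell markers to 72.4 and 35.4 CPM and erythroid markers to 1.34 and 0.407 CPM, with no gene called. The part of these markers in the results was not tested.

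The other genes of the pathway, 70 in 7 lists, showed more falls than rises. Of these, 56 were tested, 9 were called higher and 23 lower in aged mice, and 24 were not called, with a median log2 fold change of -0.12 (all genes tested: 0.01, with 22.4% called higher and 23.0% lower). With the exon length trend removed, 8 were called higher and 14 lower, and the median was 0.01, beside 0.02 for all genes, of which 1784 were called higher and 1609 lower of 9742. With upper quartile factors, 15 were called higher and 18 lower (all genes: 2501 and 2011), and with library totals 6 and 26 (all genes: 1682 and 2762).

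Ligands were nearly absent except M-CSF. Tnfsf11, which encodes RANKL, and Tnfrsf11b, which encodes its decoy receptor osteoprotegerin, had at most 1 count in any mouse, and Il34, the second ligand of the M-CSF receptor, at most 5. Csf1, which encodes M-CSF, was at 18.8 ± 4.96 CPM in aged mice and 26.6 ± 6.14 CPM in young mice (SD, n = 6 each) and fell by 0.50 on the log2 scale (edgeR adjusted p = 0.0497). This call was lost without aged mice 1 and 7 (-0.33, adjusted p = 0.107) and with the length correction (-0.35, adjusted p = 0.199).

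Of the 13 genes listed behind the M-CSF receptor, 3 were called higher and 7 lower (median -0.16, or 0.03 with the length correction, which left 2 higher and 2 lower). The list holds relays and also genes that limit the receptor's signal. Among the latter, Cbl (-0.40) and Inpp5d (-0.16) were called lower and Ptpn6 was not called. With the length correction Cbl was still called by edgeR (-0.20, adjusted p = 0.0229) and Inpp5d was not (0.03, adjusted p = 0.724). Sos1, the exchange factor that loads Ras, fell by 0.72 (edgeR adjusted p = 6.68e-05), from 52.4 to 62.9 CPM in young mice to 29.5 to 44.0 CPM in aged mice without overlap, and by 0.26 with the length correction (adjusted p = 0.0169). Mapk3, which encodes ERK1, rose by 0.32 (adjusted p = 0.00745), also without overlap, and was not called with the length correction (0.17, adjusted p = 0.0983). The phosphatase gene Ptpn6 (0.08) and the docking protein gene Gab2 (0.00) were not called.

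Of the 18 genes between RANK and NF-kB or AP-1, 11 were called lower and 1 higher (median -0.26), with 8 lower and 1 higher with the length correction (median -0.20). Fos, a subunit of AP-1 that acts upstream of Nfatc1, fell by 1.34 (SE 0.235, edgeR adjusted p = 0.000512), from 292 to 733 CPM in young mice to 104 to 281 CPM in aged mice. Traf3, a brake on noncanonical NF-kB signalling, fell by 0.87 (adjusted p = 2.55e-05), from 98.7 to 141 CPM to 57.5 to 77.2 CPM. In neither gene did the ages overlap, and with the length correction both were still called, at -1.44 for Fos and -0.52 for Traf3. Ikbkg, the regulatory subunit of the IkB kinase, rose by 0.29 (adjusted p = 0.0101), and by 0.66 with the length correction (adjusted p = 0.00016). The genes of its catalytic subunits did not rise with it. Ikbkb fell by 0.59 (adjusted p = 0.00351) without overlap between the ages, and by 0.43 with the length correction (adjusted p = 0.0171). Chuk was not called (0.10, adjusted p = 0.265).

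Of 9 tested genes for ITAM costimulation and calcium, 2 were called higher and 4 lower. Tec, a tyrosine kinase that acts beside Btk, fell by 0.64 (edgeR adjusted p = 3.62e-05), from 25.6 to 31.0 CPM in young mice to 17.1 to 19.7 CPM in aged mice. Ppp3r1, the regulatory subunit of calcineurin, which activates NFATc1, rose by 0.43 (adjusted p = 0.00116), from 128 to 175 CPM to 195 to 231 CPM. Ppp3ca, which encodes a catalytic subunit of calcineurin, fell by 0.37 (adjusted p = 0.000668), from 211 to 252 CPM to 165 to 207 CPM. The calls of Tec, Ppp3r1 and Ppp3ca held with the length correction, which gave -0.45 for Ppp3ca. Btk (-0.20), Lyn (0.05) and Ppp3cb (0.14) were not called. With the length correction the list again had 2 genes higher and 4 lower, but Btk (-0.24, adjusted p = 0.0286) and Ppp3cb (0.23, adjusted p = 0.00681) were then called. The call of Fcer1g, an ITAM adaptor gene (0.41), was lost (-0.090, adjusted p = 0.269).

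Among 4 tested transcription factor genes, Sfpi1, which encodes PU.1, was called higher at 490.3 ± 66.6 against 404 ± 45.8 CPM (log2 fold change 0.28, edgeR adjusted p = 0.0301), and the call was lost with the length correction (0.03, adjusted p = 0.806). The MITF relatives Tfe3 (-0.14), Tfeb (0.18) and Tfec (0.23) were not called, though Tfeb was without aged mice 1 and 7 (0.26, adjusted p = 0.0115). Of the 6 tested repressors and brakes, 1 was called higher and 0 lower (2 higher with the length correction). Irf8, a transcription factor that restrains osteoclast formation (0.51, adjusted p = 0.375), and Tnfaip3, an inhibitor of NF-kB (-0.10, adjusted p = 0.323), were not called, and Irf8 was at -0.092 without aged mice 1 and 7. Of 5 tested fusion and resorption genes, Ostm1, a partner of the chloride transporter of the ruffled border, rose by 0.23 (adjusted p = 0.0308), and Mmp9 (0.25) and Tcirg1, a proton pump subunit (-0.29), were not called, though Mmp9 was without aged mice 1 and 7 (0.34, adjusted p = 0.0387).

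**Figure D5:**
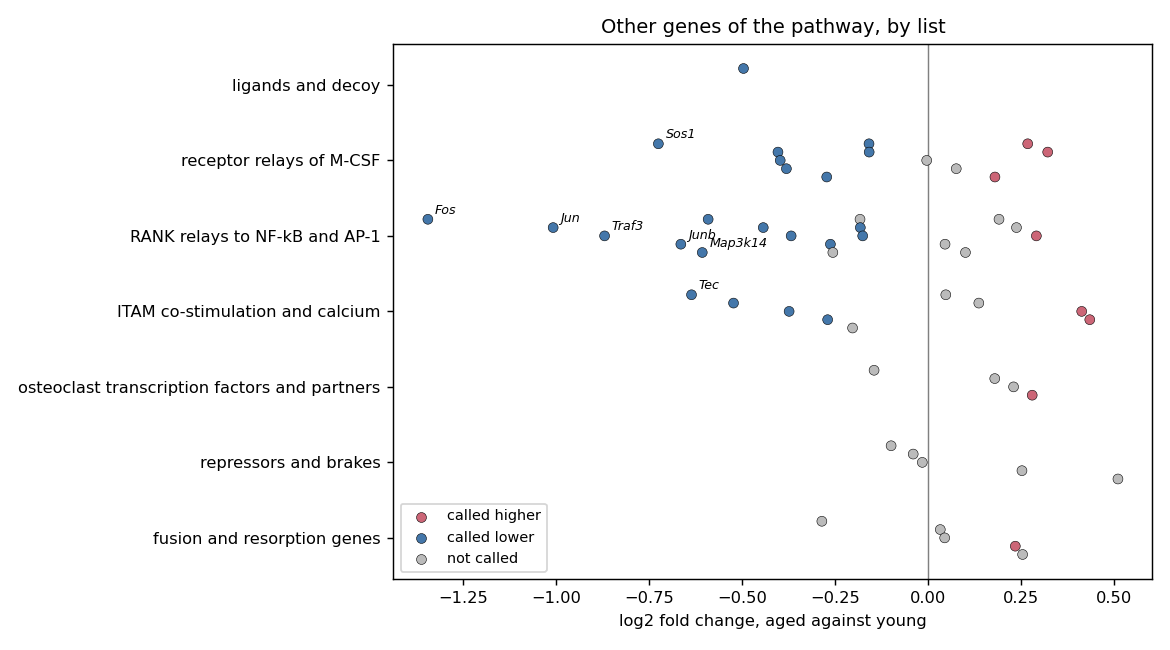
log2 fold change of aged against young mice for 54 of the 56 tested pathway genes, 1 point per gene in rows by list, coloured by the edgeR call. Fos stands farthest to the left at -1.34, and 11 of 18 genes between RANK and NF-kB or AP-1 were called lower.

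The genes whose log2 CPM varied most like each of the 6 tested genes within the ages were found by Pearson's correlation over the 12 mice after the mean of each age was removed, as a description over shared libraries. Csf1r was closest to Npc2 (0.97), Ctsa (0.93) and Sema4b (0.90), and Tyrobp to Mrpl33, Taldo1 and Fau (all 0.98). Traf6 was closest to Zswim4 (0.91), Btbd7 (0.90) and Gm5069 (0.90), Nfatc1 to Ugcg (0.95), Epn1 (0.95) and Adam19 (0.94), and Mitf to Mfap3l (0.91), Mpdu1 (0.89) and Nop9 (0.88). Acp5 was closest to Vps45 (0.97), Slx4ip (0.94) and Akap11 (0.93), and these values were higher in aged mice alone (0.97 to 0.99) than in young mice alone (0.46 to 0.68). These were the 3 highest of 9741 genes compared for each gene over few mice.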

How the data were processed

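RNA from sorted cells was made into stranded libraries and sequenced as read pairs. The authors deposited a table of raw counts of fragments per gene, made with featureCounts 2.0.0 on the UCSC mm10 gene models (exons by gene name, reverse strand, mapping quality of at least 60, proper pairs only); the aligner is not given in the sources used here. From these counts, edgeR 4.0.16 in R 4.3.3 was used: filterByExpr by age left 9742 of 15827 genes with counts, TMM factors were applied, and the quasi-likelihood test was adjusted by Benjamini-Hochberg over all genes tested (called below 0.05). CPM per length used the exon length in the table. The biological coefficient of variation was 15.7%. No pair of libraries of the same age agreed within sampling noise.

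The genes and the lists were chosen with earlier results of these data known. Named were all 10 genes and, per pathway list, the largest rise, the largest fall, the smallest p-value and, where few, genes not called, with the most abundant marker per cell type list. Some further genes, such as Ppp3ca, Ikbkb and Cbl, were named beside these. Spi1, Jchain and Tcfec were matched under the table's names Sfpi1, Igj and Tfec. A few listed genes that the rule would name are counted but not reported here. The alternatives were DESeq2 1.42.0, limma 3.58.1 (voom), other scalings, filters, thinning to the smallest library, an exon length correction, a replicate block and leaving out each mouse. The floor of 3 counts covers counting error only.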

Additional observations from a re-analysis of the deposited data

Results flagged for a closer look

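In 58 groups of 6 values examined for a mouse far from the others, 2 stood out, and chance alone flags about 1 group in 20. Src in aged mouse 1 was at 4.46 CPM, with the nearest aged mouse at 1.75 CPM. Gab2 in aged mouse 4 was at 75.6 CPM, with the nearest at 54.2 CPM. Aged mouse 1 also had the highest sum of resident macrophage markers, and the part of these in Src was not tested.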

How the results depend on the processing

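The count of the 10 genes called higher in aged mice (2) was 1 with limma-voom, with at least 10 counts in every mouse, with thinning to the smallest library, with the 8 mice of shared numbers without a block and without aged mice 1 and 7; under the stricter filter and thinning, Acp5 had too few counts to be tested. It was 3 with DESeq2 and without the filter, where Src was added. The count called lower (0) was 1 with library totals (Nfatc1). Pathway genes called higher (9) were 15 with upper quartile factors (18 lower), and those called lower (23) were 14 with the exon length correction. The replicate numbers name different mice, and mice of the same number did not deviate together (correlations of -0.14, -0.07, -0.24 and -0.25 over 9742 genes for numbers 1, 2, 5 and 6). With a replicate block on the 4 shared numbers, 1 of the 10 genes and 3 pathway genes were called higher, and 3446 of all genes were called. In the same mice without the block, 1 of the 10 genes and 7 pathway genes were called higher, and 4394 of all genes were called. Acp5 was at 1.15 (adjusted p = 0.125) with the block and 1.46 (adjusted p = 0.0652) without it, in edgeR. Over the 12 fits that left out a mouse, the genes called were 2 to 2 higher and 0 to 0 lower, pathway genes 6 to 11 higher and 17 to 22 lower, and all genes 3804 to 4717. Signs turned for Csf1r with library totals (-0.0028) and without aged mouse 1 (-0.064, range -0.064 to 0.17), for Tyrobp (-0.026) and Nfatc1 (0.24) with the length correction; the cause was not tested. Library totals gave 1682 genes higher and 2762 lower, against 2185 and 2240 with TMM. Depth limits Tnfrsf11a, Src, Oscar and Dcstamp.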
